A study of Mus musculus with 8 samples.

Results

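Round spermatids, the haploid cells that leave the second meiotic division, were compared with pachytene spermatocytes, the cells in the long prophase of the first division, in the mouse. The comparison used the 2 arrays titled as round spermatids against the 2 titled as pachytene spermatocytes, 4 of the 8 arrays of the series, and took probe sets annotated to exactly 1 gene. All samples were total RNA of strain BL/6-129, with no treatment or allele given, hybridised to the oligonucleotide array Mouse 430 2.0. The design text describes the duplicates as separate germ cell preparations, so p-values here measure the spread between preparations. The 2 arrays of type A spermatogonia, dividing cells from before meiosis, served to estimate that spread and as a level for reference. The sources used here give neither the age of the mice nor how the cells were separated or how pure they were.

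In the testis, spermatogonia divide by mitosis and then enter meiosis, and each spermatocyte that completes both divisions yields haploid round spermatids. Spermatids build the acrosome, a vesicle of enzymes and receptors for binding the egg, and the flagellum, and they later replace histones with transition proteins and then protamines. Much of the mRNA for these proteins is made before it is translated and is stored in repressed form. During pachytene the X and Y chromosomes are condensed in the sex body and largely silenced, and some of their genes become active again after meiosis.

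The deposited values are MAS5 signals, which are relative brightness values on a linear scale, already scaled to the same trimmed mean of 125 on every array. Their median was 36.2 and 34.2 on the pachytene arrays and 33.7 and 37.3 on the spermatid arrays. Across the 13841 genes tested, which are not independent replicates, log2 values correlated at r = 0.980 within either pair of replicates and at 0.755 to 0.792 between the groups. The 18S RNA control at the 3′ end read 276.3 and 184.9 on the pachytene arrays and 158.2 and 120.1 on the spermatid arrays, while the ratio of 3′ to 5′ signal for Actb ran from 1.45 to 1.68 over all 4. The part of that 18S difference in the results below was not tested. Ldhc gave the highest signal of any probe set on each of the 4 arrays, from 5975 to 6988.

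The change from spermatocyte to spermatid was uneven in size. Of 13841 genes tested, 2733 were higher in spermatids (19.7%) and 3316 were lower (24%), at an adjusted p under 0.05 in limma with Benjamini-Hochberg adjustment. Small and middling falls were common, whereas large changes were mostly rises. At least 4-fold, 907 genes were higher and 163 lower, and at least 8-fold, 488 were higher (3.53%) and 13 lower (0.0939%), on the scale of log2(signal + 16). Both spermatid signals reached 500 while both pachytene signals stayed at or under 50 for 46 genes, and 0 genes did so in the other direction. The median log2 change of all genes was -0.06, with a range from -3.70 to 5.15. The 2 groups did not overlap, with spermatids higher, for 4537 genes (32.8%) and, with spermatids lower, for 5629 (40.7%). Without pachytene replicate 1 the number of genes lower in spermatids was 2179 and without spermatid replicate 2 it was 2078. Genes at least 8-fold lower numbered 8 without spermatid replicate 2, and with a pseudocount of 1 the 8-fold counts were 678 higher and 49 lower. In bulk RNA, fewer cells of a type and less RNA per cell cannot be told apart.

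The labels were first set against genes that define each stage. Spam1, a hyaluronidase of the sperm surface, read 45.9 and 32.7 on the pachytene arrays and 1043 and 1033 on the spermatid arrays. Izumo1, the sperm protein that binds the egg receptor Juno, read 50.4 and 47.7 against 1085 and 1148. Prm1, a protamine, read 455.0 and 586.4 against 4110 and 4952. Every spermatid value of these 3 genes lay above every pachytene value, and the log2 changes were 4.26 ± 0.19 for Spam1, 4.12 ± 0.28 for Izumo1 and 3.09 ± 0.22 for Prm1 (± is the standard error of the fit, n = 2 arrays per group; limma adjusted p = 4.09e-06, 8.59e-06 and 1.06e-05). Tnp2, a transition protein, rose from 335.2 and 312.5 to 3404 and 4502, by 3.53 ± 0.20. Id4, an inhibitor of helix-loop-helix transcription factors best known in spermatogonial stem cells, went the other way, from 1460 and 1321 in pachytene cells to 155.8 and 121.7 in spermatids. Its type A level of 197.1 and 314.5 was thus nearer to that of spermatids than to that of spermatocytes, and the fall was -3.19 ± 0.24 (limma adjusted p = 1.49e-05). Sycp3 of the synaptonemal complex, Hspa2, a chaperone of spermatocytes, and Ldhc read 2694 and 2586, 3696 and 3950, and 5975 and 6563 on the pachytene arrays. Spermatid signals of these 3 genes were also high, at 1698 and 1758, 4050 and 3604, and 6578 and 6988, so Hspa2 and Ldhc do not tell the stages apart.

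**Figure D1:**
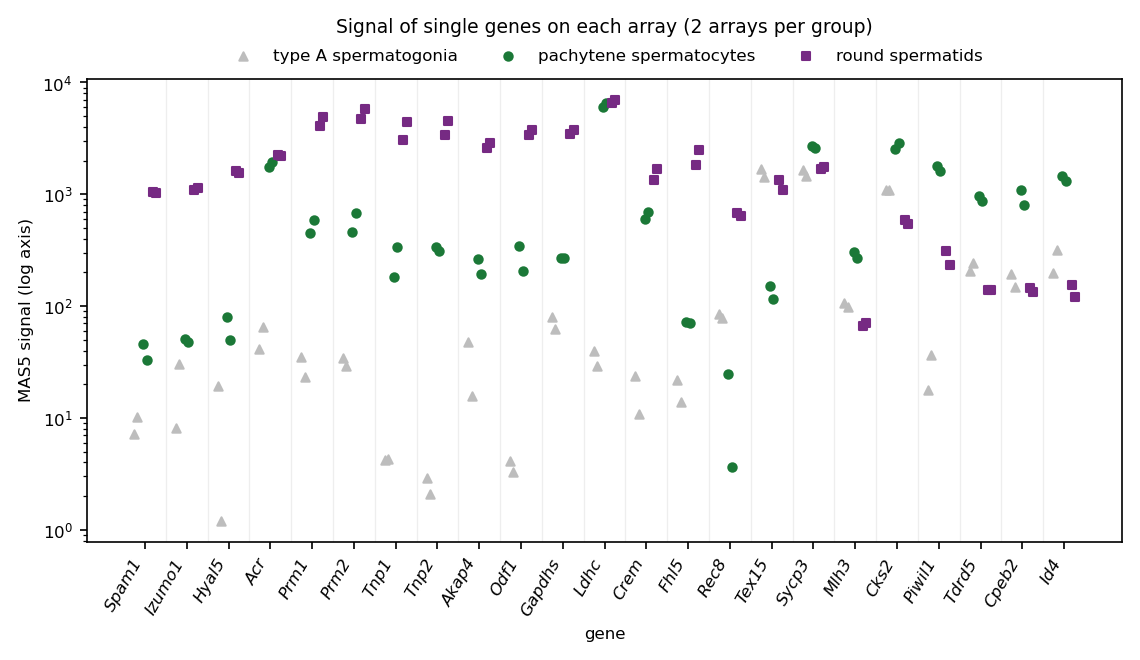
Signal of 23 genes on each array, on a log axis, for type A spermatogonia (triangles), pachytene spermatocytes (circles) and round spermatids (squares), 2 arrays per group. Spam1, Prm1 and Rec8 stand higher in spermatids on both arrays, Acr and Ldhc lie close together in both groups, and Piwil1, Cpeb2 and Id4 stand lower in spermatids.

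Genes for the acrosome and for sperm-egg fusion were either higher in spermatids or did not pass the test, and several of the latter were already strong in spermatocytes. Of 32 genes listed, 31 were tested, 20 were higher in spermatids (64.5%) and 0 lower, where all genes gave 19.7% and 24%. The median log2 change was 3.12 against -0.06 for all genes. For 16 of them the rise was at least 8-fold, from pachytene signals between 10.9 and 245.7 to spermatid signals between 403.2 and 2630. Fam170b, a protein of the acrosome, went from 19.4 and 28.7 to 939.1 and 819.9, the greatest rise of the list at 4.49 ± 0.25. Hyal5, the hyaluronidase encoded next to Spam1, went from 80.0 and 50.1 to 1623 and 1546, by 4.33 ± 0.33. The membrane protein Spaca1, needed to shape the acrosome, and Acrv1, a protein of its matrix, were likewise low and then high, from 191.2 and 147.2 to 2615 and 2630 and from 176.1 and 118.5 to 2406 and 2446. Acr, the acrosomal protease acrosin, read 1744 and 1926 in pachytene cells and 2236 and 2208 in spermatids. Its change of 0.28 ± 0.21 did not pass the test (limma adjusted p = 0.331). Acrbp, which binds proacrosin, Dkkl1 and Spink2 of the acrosome, and Adam2 and Clgn, which act in sperm surface assembly, also did not pass, with log2 changes from -0.34 to 0.39 and pachytene signals from 1229 to 3122. At an unadjusted p under 0.05, 1 of the 11 genes that did not pass would have.

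Genes for nuclear packaging in late spermatids were mainly higher. Of 26 genes listed, 22 were tested, with a median of 2.60. Among them, 13 were higher (59.1%, all genes 19.7%) and 3 lower (13.6%, all genes 24%). Tnp1 went from 182.3 and 338.4 to 3037 and 4397, by 3.79 ± 0.29. Prm2 went from 457.1 and 676.3 to 4726 and 5756, by 3.19 ± 0.23. The lowest spermatid signal of Tnp1 and Tnp2 was thus 3037, while their type A signals were between 2.1 and 4.3. The linker histones of spermatids moved with them: H1f7 rose by 4.397 ± 0.28 and Hils1 by 4.07 ± 0.19. So did the spermatid variants H2bl1 and H2al2a, by 4.24 ± 0.26 and 3.69 ± 0.35. Cdyl, a chromodomain protein, read 109.0 and 87.9 against 1337 and 1261 in the probe set used, but its other probe sets changed by 0.04 and 0.09 and were not called. Tssk6, a kinase needed for packing, read 92.6 and 73.7 against 859.8 and 1339. By contrast Brdt, the bromodomain protein that binds acetylated histones, read 1069 and 1174 against 1324 and 1210, and Psme4, a proteasome activator for acetylated histones, 1923 and 1758 against 2316 and 2025. Neither passed the test. The 3 lower genes were Kdm3a, a histone demethylase, at -0.93 ± 0.21, Epc1 at -0.83 ± 0.24 and Rnf8 at -0.66 ± 0.20. Their number was 1 without pachytene replicate 1 and 0 without spermatid replicate 2. H1f6, the linker histone of spermatocytes, read only 36.8 and 49.0 on the pachytene arrays, close to the array medians, and did not pass.

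Structural proteins of the sperm tail and head capsule were mainly higher. Of 29 genes listed for the outer dense fibres, fibrous sheath and perinuclear theca, 28 were tested, with a median of 3.36. Among them, 25 were higher (89.3%, all genes 19.7%) and 1 lower (3.57%, all genes 24%). Odf1, a main outer dense fibre protein, went from 345.4 and 206.3 to 3373 and 3743, by 3.65 ± 0.24. Akap4, the X-linked scaffold of the fibrous sheath, went from 261.1 and 192.7 to 2592 and 2902, by 3.52 ± 0.32. Its partner Akap3 read 651.4 and 311.5 against 3430 and 3720, a rise of 2.94 ± 0.30, and a second Akap3 probe set rose by 3.53 ± 0.24. Actin-related proteins of the spermatid head, Actl7a and Actrt2, rose by 3.86 ± 0.22 and 3.60 ± 0.22, and Capza3, a testis capping protein, by 3.94 ± 0.24. Smcp, of the mitochondrial capsule, rose from 736.2 and 570.3 to 4242 and 4494, although not called with all 8 arrays giving the spread (limma adjusted p = 0.0724). That setting, also used below, adds the 2 type B arrays. These correlated with each other at r = 0.886, against 0.964 for the type A pair and 0.980 for the pachytene and spermatid pairs. Odf2, which is also a centrosomal protein, changed by 0.65 ± 0.17, a call lost without any 1 of the 4 arrays compared, and Odf4 and Gpx4 did not pass. The single lower gene, Capzb at -0.64 ± 0.19, was not called without any 1 of the 4 pachytene and spermatid arrays, and another of its probe sets was higher by 1.29 ± 0.22.

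Genes of the inner machinery of the flagellum moved both ways. For the axoneme and manchette, the microtubule bundles of the tail and of the elongating nucleus, 46 genes were listed and 40 tested. Of these, 9 were higher (22.5%) and 10 lower (25%), near the 19.7% and 24% of all genes, with a median of 0.09. Spag4, a nuclear envelope protein of the manchette, went from 103.5 and 53.3 to 1628 and 1794, by 4.24 ± 0.32. Spag6 of the central pair went from 92.8 and 59.4 to 1586 and 1605, by 4.15 ± 0.21. Tektins, filament proteins of the doublet microtubules, were higher for all 5 members tested, from 2.12 ± 0.18 for Tekt4 and 2.05 ± 0.20 for Tekt2 down to 0.64 ± 0.19 for Tekt5, which was not called without either pachytene array or spermatid replicate 1. The largest fall of the list was that of Spef1, from 288.9 and 366.2 to 75.4 and 95.2, by -1.76 ± 0.20. Of the 10 genes that fell, 7 were motors or their cargo carriers, while 21 genes of the list did not pass. How many motors and carriers were tested was not counted. Dnah1, a heavy chain of axonemal dynein, fell by -1.32 ± 0.25, and Ift20 and Ift81 of intraflagellar transport by -1.12 ± 0.18 and -1.07 ± 0.20. Smaller falls, from -0.81 for Ift27 to -0.53 for Ift140, were those of Ift27, Dnah8, Ift88 and Ift140, and each lost its call without at least 2 of the 4 arrays in turn. Ift20 read 304.5 and 322.9 in pachytene cells against 145.0 and 127.1 in spermatids. Spag6l, the second mouse Spag6 gene, was lower by -0.80 ± 0.18, opposite to Spag6, but not without pachytene replicate 2 or spermatid replicate 2, nor with all 8 arrays giving the spread (limma adjusted p = 0.650). The probe sets of these near copies may share target sequence. The 10 lower genes numbered 6 without pachytene replicate 1, 5 without pachytene replicate 2 and 4 without spermatid replicate 2, and 6 when arrays were centred on ribosomal protein genes.

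Channel and pump genes listed for sperm were more often higher than lower. Of 25 channel and pump genes listed, 18 were tested, with a median of 0.43. Among them, 9 were higher (50%, all genes 19.7%) and 2 lower (11.1%, all genes 24%). Pore subunits of CatSper, the calcium channel of the flagellum, differed among themselves. Catsper1 went from 102.1 and 79.2 to 1282 and 1074 and Catsper3 from 63.9 and 45.2 to 974.5 and 868.6, by 3.49 ± 0.20 and 3.74 ± 0.26. Catsper2, at 1574 and 1539 in pachytene cells, was higher by 0.56 ± 0.20, a call lost without any 1 of the 4 arrays compared and a change of -0.094 with the mean of its probe sets. The auxiliary subunits Catsperd, Catsperg1 and Catsperz did not pass. Atp1a4, the sodium pump isoform of sperm, rose by 3.64 ± 0.34, and Kcnu1, the sperm potassium channel, by 2.93 ± 0.28. Pkd2l1, a polycystin channel, was the larger of the 2 falls at -1.92 ± 0.25. The second, Slc9a8 at -0.63 ± 0.18, was not called without pachytene replicate 1 or either spermatid array.

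Of 25 kinase and phosphatase genes listed for spermiogenesis in the testis, 24 were tested, with a median of 0.45. Like the other lists of spermatid genes, this one was chosen for the stage and does not stand for kinases in general. Among them, 12 were higher (50%, all genes 19.7%) and 2 lower (8.33%, all genes 24%). Testis-specific serine kinases made up the top of that list. Tssk3 went from 70.4 and 59.6 to 1302 and 1391, by 4.07 ± 0.20, and Tssk2 from 151.3 and 132.1 to 2367 and 2672, by 4.01 ± 0.18. Tssk4 and Tssk1 rose by 3.61 ± 0.21 and 2.57 ± 0.46, Tssk1 not being called with a pseudocount of 1 (limma adjusted p = 0.101). Ppp1cc, the phosphatase whose loss stops spermiogenesis, was at 4519 and 4719 against 4778 and 4957 and did not pass. Nek2, a centrosome kinase, and Ccny, a cyclin, were lower by -1.05 ± 0.21 and -1.21 ± 0.25. With the mean of all its probe sets Ccny was not called (limma adjusted p = 0.156).

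Genes listed for sperm-specific energy metabolism mostly did not pass the test. Of 28 genes listed, 26 were tested, with a median of 0.07. Among them, 8 were higher (30.8%, all genes 19.7%) and 2 lower (7.69%, all genes 24%). Gapdhs, the glyceraldehyde-3-phosphate dehydrogenase bound to the fibrous sheath, went from 270.5 and 270.0 to 3463 and 3746, by 3.66 ± 0.19. The aldolases Aldoart1 and Aldoart2 rose by 4.38 ± 0.26 and 4.29 ± 0.22, and Oxct2a, of ketone body use, by 3.80 ± 0.28. Pgk2, the autosomal phosphoglycerate kinase of germ cells, was partly on in spermatocytes, at 716.9 and 847.8 against 2750 and 3123, a rise of 1.89 ± 0.19 (limma adjusted p = 6.91e-05, but 0.176 when all 8 arrays gave the spread). Ldhc, Gk2, Pdha2 and Cox6b2, which serve lactate, glycerol, pyruvate and electron transport in germ cells, had signals from 1892 to 6988 on the 4 arrays and did not pass. Cyct, the testis cytochrome c, was lower, from 1117 and 1410 to 378.5 and 550.0, by -1.43 ± 0.23, although with all 8 arrays giving the spread it was not called (limma adjusted p = 0.0859).

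Among 26 tested of 30 genes listed for ubiquitin and the proteasome in spermiogenesis, 12 were higher (46.2%) and 4 lower (15.4%), with a median of 0.36. All genes gave 19.7% higher and 24% lower. Rnf133 and Rnf151, ubiquitin ligases of spermatids, rose by 4.12 ± 0.23 and 4.02 ± 0.26, and Klhl10, the adaptor of a cullin ligase, from 199.1 and 134.4 to 2822 and 2786. Psma8, the proteasome subunit of spermatocytes, fell from 2381 and 2354 to 786.0 and 668.9, by -1.69 ± 0.19 (limma adjusted p = 0.000172; 0.0710 with all 8 arrays giving the spread). Cul4a and Cul4b, paralogous cullins, moved in opposite directions, at -1.22 ± 0.19 and 2.97 ± 0.25, but a second Cul4b probe set was lower by -1.82 ± 0.30, and with the mean of both Cul4b was not called (limma adjusted p = 0.0810). With the mean of all probe sets standing for a gene, 7 genes of this list were higher.

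**Figure D2:**
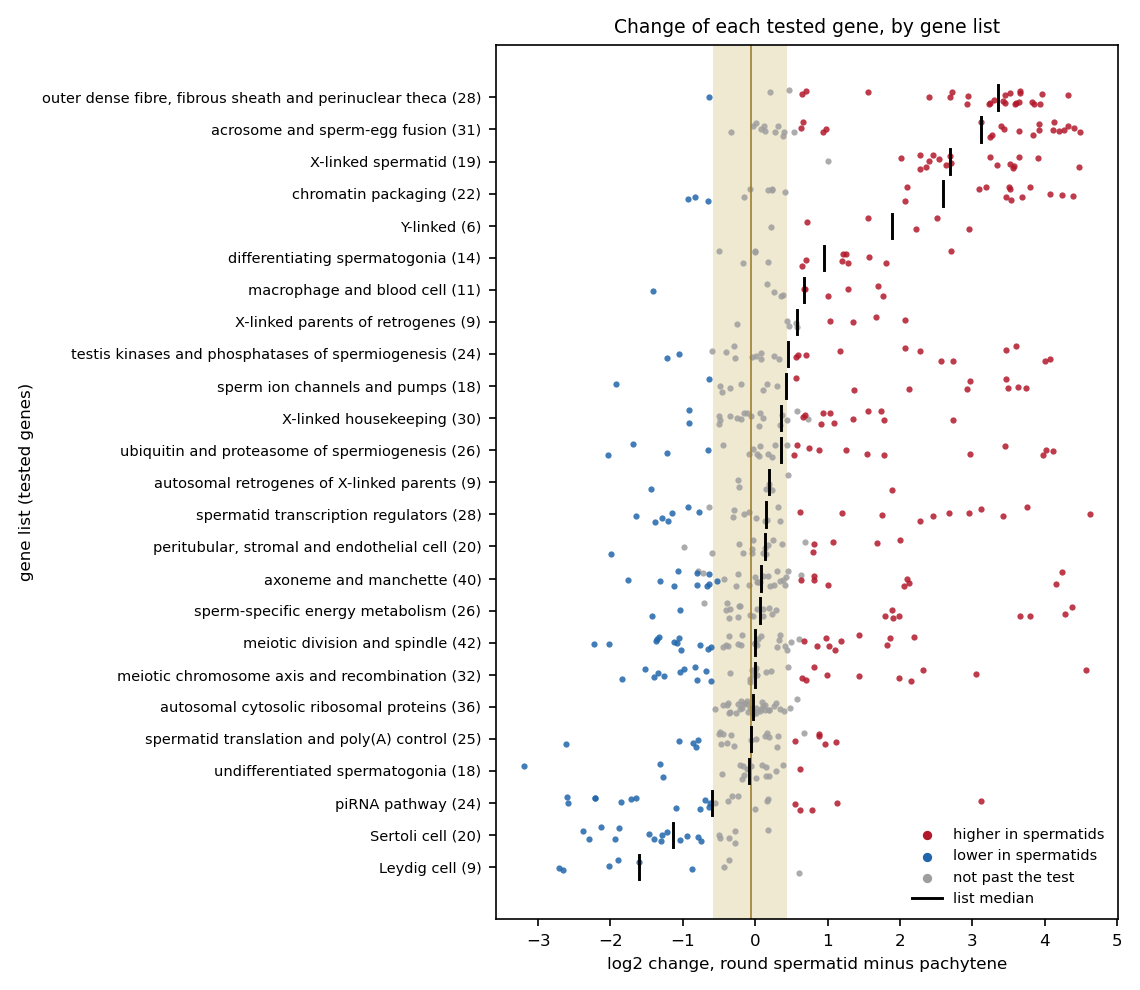
Log2 change of each tested gene (points) from pachytene spermatocytes to round spermatids in 25 gene lists, with the list median (black bar) and, over all tested genes, the median (line) and the middle 50% (shaded band). Lists of the tail sheath and acrosome have medians of 3.36 and 3.12, ribosomal protein genes lie within the range of all genes, and Sertoli and Leydig cell lists stand lowest.

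Regulators of transcription listed for spermatids moved both ways. Of 30 genes listed, 28 were tested, with a median of 0.16. Among them, 11 were higher (39.3%, all genes 19.7%) and 7 lower (25%, near the 24% of all genes). Fhl5, the testis coactivator of Crem, came on in spermatids, from 72.5 and 71.0 to 1836 and 2504, by 4.62 ± 0.22. Crem itself, the activator of many postmeiotic genes, was already at 601.6 and 701.1 in spermatocytes and reached 1346 and 1693, a rise of 1.20 ± 0.24 (limma adjusted p = 0.00361). That call was lost when all 8 arrays gave the spread (adjusted p = 0.220) and with the mean of all its probe sets (0.633), since the other 2 probe sets changed by -0.35 and -0.44. Sox5, Creb3l4 and Kif17, which shuttles Fhl5 out of the nucleus, rose by 3.76 ± 0.23, 3.42 ± 0.23 and 3.12 ± 0.18. Klf4, a zinc finger factor of postmeiotic cells, went from 352.5 and 233.0 to 2650 and 2055, and its type A level of 1167 and 2052 was also above that of spermatocytes. Tbpl1, the TBP-related factor of spermatids, read 2687 and 3023 against 3077 and 3216 and did not pass, nor did Ybx2 and Gtf2a1l. Mybl1, a master regulator of pachytene genes, fell from 1166 and 683.8 to 306.5 and 246.4, by -1.64 ± 0.27, and Yy1, Rfx4, Sp1 and Creb1 fell by between -1.38 and -1.15. Rfx4 was not called with all 8 arrays giving the spread (limma adjusted p = 0.265). Sp1 and Creb1 were not called without pachytene replicate 1 or spermatid replicate 2, and the mean of the Creb1 probe sets changed by 0.025. The lower genes numbered 4 without pachytene replicate 1 and 4 without spermatid replicate 2. A second Tbpl1 probe set was lower by -2.15 ± 0.24.

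Controllers of translation and poly(A) tails listed for spermatids moved both ways. Of 28 listed, 25 were tested, 5 were higher (20%) and 5 lower (20%), near the 19.7% and 24% of all genes. Their median of -0.06 was equal to that of all genes. Cpeb2, a protein that binds elements in mRNA tails, had the largest change of the list, from 1098 and 796.6 to 145.7 and 133.3, by -2.61 ± 0.22. Papolb, the testis poly(A) polymerase, rose from 1193 and 1228 to 2239 and 2236, by 0.88 ± 0.18 (limma adjusted p = 0.00402; 0.396 with all 8 arrays giving the spread), and Paip2b, an inhibitor of poly(A) binding protein, by 1.12 ± 0.18. Counts of higher genes were 2 without pachytene replicate 2, 3 without either spermatid array and 2 with all 8 arrays giving the spread, and the lower genes numbered 3 without spermatid replicate 2.

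Promoter sequence was set beside these changes. RefSeq windows of the build GRCm38.p6, 250 bases before the annotated start, were available singly for 8969 of the tested genes, including 305 that rose at least 8-fold, 1162 that rose at least 2-fold and 1024 that fell at least 2-fold. The motif that Crem and related factors bind, the cAMP response element TGACGTCA, was in 2.62% of the windows of genes that rose 8-fold and in 2.65% of all those tested. A close variant, TGATGTCA, chosen after the sequences had been read, was in 16.7% (51 of 305) of the windows of genes that rose 8-fold. It was in 7.83% of those that rose 2-fold, 2.06% of all those tested, 3.19% of all 22862 single windows in the table and 0.586% (6 of 1024) of those that fell. Both strands were searched, TGATGTCA does not hold the core TGACGT, which the full element does, and that core was in 7.87% of genes that rose 8-fold and 9.86% of genes tested. A match is only a run of letters and says nothing on whether a factor binds there.

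Sequences of 150 bases before the start are shown for 5 genes with the variant, for Izumo1, which holds the full element, and for 2 genes of chromatin packing that hold neither. Capitals mark TGATGTCA or TGACGTCA.
Tnp1: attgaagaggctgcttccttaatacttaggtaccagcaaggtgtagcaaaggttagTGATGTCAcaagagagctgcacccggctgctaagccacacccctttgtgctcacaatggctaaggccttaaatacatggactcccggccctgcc
Spam1: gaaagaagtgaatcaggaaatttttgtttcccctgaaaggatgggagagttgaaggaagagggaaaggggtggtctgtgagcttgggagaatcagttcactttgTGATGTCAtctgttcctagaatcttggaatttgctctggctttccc
Hyal5: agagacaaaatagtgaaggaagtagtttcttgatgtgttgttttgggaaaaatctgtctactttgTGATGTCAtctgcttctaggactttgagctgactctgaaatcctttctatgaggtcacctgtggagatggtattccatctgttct
Spag6: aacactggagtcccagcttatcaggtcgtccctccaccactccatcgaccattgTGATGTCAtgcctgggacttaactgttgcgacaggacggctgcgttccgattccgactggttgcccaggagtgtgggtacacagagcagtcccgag
Akap4: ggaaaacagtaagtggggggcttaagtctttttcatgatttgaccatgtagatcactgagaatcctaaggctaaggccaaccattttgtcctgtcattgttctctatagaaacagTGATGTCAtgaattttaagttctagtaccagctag
Izumo1: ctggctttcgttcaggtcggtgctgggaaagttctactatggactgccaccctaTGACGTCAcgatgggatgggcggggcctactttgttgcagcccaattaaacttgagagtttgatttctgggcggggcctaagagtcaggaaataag
Prm1: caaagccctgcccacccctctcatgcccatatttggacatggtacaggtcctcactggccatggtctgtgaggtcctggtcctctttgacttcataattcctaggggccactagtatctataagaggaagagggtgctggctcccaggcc
Tnp2: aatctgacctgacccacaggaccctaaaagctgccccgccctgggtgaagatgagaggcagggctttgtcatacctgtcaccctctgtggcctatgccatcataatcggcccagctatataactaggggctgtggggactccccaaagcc
These lie at chr1:73015900-73016049 (minus strand) for Tnp1, chr6:24791038-24791187 (plus) for Spam1, chr6:24857847-24857996 (plus) for Hyal5, chr2:18698872-18699021 (plus) for Spag6, chrX:7067365-7067514 (plus) for the first of 2 Akap4 windows, chr7:45621661-45621810 (plus) for Izumo1, chr16:10796824-10796973 (minus) for Prm1 and chr16:10788656-10788805 (minus) for Tnp2. The variant began 94 bases before the start in Tnp1, 46 in Spam1, 85 in Hyal5, 96 in Spag6 and 35 in Akap4, and the full element began 96 bases before the start of Izumo1. The second Akap4 window held neither element in its 150 bases, and Akap4, having 2 windows, is not among the genes of the shares above. Spam1 and Hyal5 share a run of 18 bases around the variant, so these neighbouring genes are not separate cases.

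CpG content also differed between the rising and the falling genes. The median number of CpG dinucleotides in 250 bases was 3 for genes that rose at least 8-fold, 7 for those that rose 2-fold, 15 for all those tested and 16 for those that fell 2-fold. Windows with 0 to 2 CpG made up 46.6% of the first set and 3.42% of the last. The GC box letters GGGCGG were in 18.7% of genes that rose 8-fold, 56.65% of those tested and 60.8% of those that fell. The letters GTTGCCA, part of the X box bound by Rfx factors, were in 7.54% of genes that rose 8-fold, 3.53% of genes tested and 2.44% of those that fell. The letters TATAAA differed less, at 9.84%, 7.35% and 6.35%. For contrast, the same stretch of 2 genes that fell is shown with each CpG in capitals.
Piwil1: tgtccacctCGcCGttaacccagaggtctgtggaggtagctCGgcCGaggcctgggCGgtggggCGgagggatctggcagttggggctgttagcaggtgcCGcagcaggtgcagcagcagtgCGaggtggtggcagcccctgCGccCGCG
Id4: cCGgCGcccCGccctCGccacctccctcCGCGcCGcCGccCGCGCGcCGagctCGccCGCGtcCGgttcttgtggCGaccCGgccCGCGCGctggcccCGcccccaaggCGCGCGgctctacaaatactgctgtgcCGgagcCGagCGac
They lie at chr5:128736096-128736245 (plus) for Piwil1, with 11 CpG, and chr13:48260966-48261115 (plus) for Id4, with 28. The stretches shown for Prm1, Spam1, Hyal5 and Akap4 held 0. Those for Tnp1 and Tnp2 held 2 each, that for Izumo1 held 6 and that for Spag6 held 8.

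**Figure D3:**
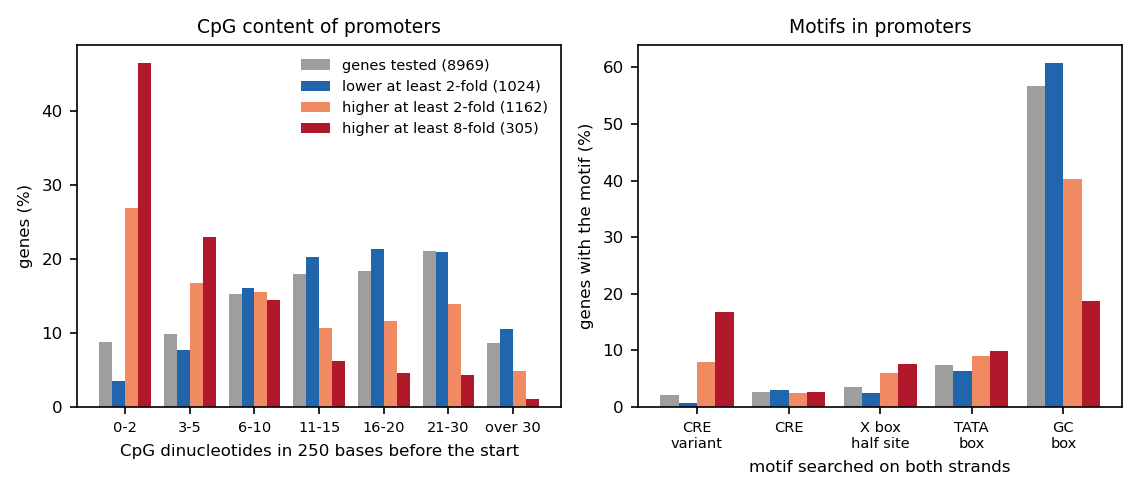
Left, share of genes by number of CpG dinucleotides in the 250 bases before the start, for all tested genes, genes at least 2-fold lower and genes at least 2-fold and 8-fold higher in spermatids. Right, share of genes with each motif, where the CRE variant stands at 16.7% in genes that rose 8-fold and 0.586% in genes that fell.

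Genes of meiotic chromosomes moved both ways. Of 41 genes listed for the chromosome axis and recombination, 32 were tested, with a median of -0.01. Among them, 10 were higher (31.25%, all genes 19.7%) and 11 lower (34.4%, all genes 24%). Among the lower genes, Mlh3, of crossovers, went from 306.6 and 267.7 to 66.5 and 70.6, by -1.84 ± 0.18, Atr, a kinase of the sex body, by -1.52 ± 0.19, and Mdc1 by -1.40 ± 0.24. Spo11, the enzyme that makes meiotic breaks, fell by -1.26 ± 0.19. Rec8, the meiotic cohesin subunit, took the opposite course, from 24.8 and 3.6 to 680.4 and 638.5, by 4.58 ± 0.31 (limma adjusted p = 7.84e-06), which put it above its type A level of 85.8 and 78.2. Tex15, of recombination, rose from 151.8 and 116.3 to 1335 and 1103, and type A arrays gave 1696 and 1438. Tex11 and Dmc1, which act in early prophase, rose by 2.32 ± 0.18 and 1.99 ± 0.19 and also stood below type A. Sycp3 was lower by -0.61 ± 0.18, a call lost without any 1 of the 4 arrays compared. The 11 lower genes numbered 6 without pachytene replicate 1, 7 without spermatid replicate 2 and 6 with all 8 arrays giving the spread.

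Genes of differentiating spermatogonia were also measured. All 14 listed were tested, 9 were higher in spermatids (64.3%) and 0 lower, where all genes gave 19.7% and 24%. The median was 0.95. Kit, the receptor of stem cell factor, read 63.5 and 64.8 in pachytene cells, 179.2 and 177.0 in spermatids and 717.1 and 853.1 in type A cells. Stra8, the retinoic acid target at meiotic entry, read 61.3 and 89.3, then 189.6 and 197.3, against 675.4 and 850.1 in type A. Summed signals of the 14 genes were 2874 and 3144 in pachytene cells, 3751 and 3757 in spermatids and 11711 and 12662 in type A. On the 4 pachytene and spermatid arrays 29.5% to 31.4% of all probe sets read under 16, so a signal above 0 does not by itself show a transcript. Among 18 tested of 23 genes for undifferentiated spermatogonia, 3 were lower and 1 higher, with a median of -0.09, and the single rise, Taf4b, was not called without any 1 of the 4 arrays compared. The undifferentiated list thus had 5.56% higher and 16.7% lower, against 19.7% and 24% of all genes. The part of spermatogonial RNA in the meiotic results was not tested.

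Genes of the divisions themselves moved both ways. Of 44 listed, 42 were tested, 10 were higher (23.8%) and 12 lower (28.6%), near the 19.7% and 24% of all genes, with a median of -0.00 and a range from -2.22 to 2.20. Cks2, a subunit needed for the first meiotic anaphase, went from 2520 and 2899 to 590.9 and 542.9, and Cdk2, the kinase at crossover sites and telomeres, from 1018 and 928.0 to 220.2 and 234.8. Those falls were -2.22 ± 0.18 and -2.02 ± 0.18. Cdk1, Bub3, Sgo2a, Prc1 and Smc4, of the spindle and chromosome condensation, were also lower, by between -1.36 and -1.03. Higher were Cdc25c, the phosphatase that activates Cdk1, by 2.20 ± 0.20, Wee1, the kinase that opposes it, by 1.83 ± 0.28, and Plk1 by 1.19 ± 0.17. Ccna1, the cyclin of meiotic division, rose from 524.5 and 561.6 to 1139 and 1227, by 1.10 ± 0.20, but was not called with all 8 arrays giving the spread (limma adjusted p = 0.0925). Kif2c was lower by -1.37 ± 0.19 in the probe set used, and another of its probe sets was higher by 1.34 ± 0.21.

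Genes of the piRNA pathway, which silences transposons through small RNAs, were more often lower than higher. Of 26 listed, 24 were tested, 12 were lower (50%) and 5 higher (20.8%), where all genes gave 24% lower and 19.7% higher. The median was -0.59. Piwil1, the main PIWI protein of pachytene cells, went from 1792 and 1621 to 309.3 and 230.9, by -2.60 ± 0.25 (limma adjusted p = 5.76e-05). Tdrd5, a tudor protein of the germ granule, went from 957.6 and 866.8 to 138.9 and 138.7, by -2.58 ± 0.18. Tdrd1, Pld6 and Piwil2, which act in piRNA production, and the helicase Tdrd9 fell by -2.22 ± 0.35, -2.21 ± 0.19, -1.86 ± 0.23 and -1.71 ± 0.18. For Piwil1 the spermatid level was still above the type A level of 17.7 and 36.2, whereas Tdrd5 was below its own of 206.9 and 244.9. Mael and Ddx4, of the same granules, were at 4028 and 4280 and at 2921 and 2798 in pachytene cells and did not pass. The largest rises of the list were those of Kif17, also counted among the transcription regulators, by 3.12 ± 0.18, and Btbd18, by 1.13 ± 0.17. Gtsf1, a partner of PIWI proteins, was higher by 0.56 ± 0.18, a call lost without any 1 of the 4 arrays compared. The higher genes numbered 3 without pachytene replicate 1, 2 without pachytene replicate 2, 2 without spermatid replicate 1, and 3 when all 8 arrays gave the spread, when arrays were centred on ribosomal genes or when all probe sets were averaged. Rnf17, among them, had another probe set that was lower by -1.32 ± 0.20.

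Sex-linked genes stood out from autosomal ones. Of 460 X-linked genes tested, 175 were higher in spermatids (38.04%) and 45 lower (9.78%), with a median log2 change of 0.36, where 13293 autosomal genes gave 19.1%, 24.6% and -0.08. Across single autosomes the share of higher genes ran from 15.9% to 23.2%. On each array the median of X-linked genes minus that of autosomal genes was -1.26 and -1.13 in pachytene cells, -0.75 and -0.64 in spermatids, and 0.13 and 0.08 in type A. Both spermatid values thus lay above both pachytene values and below both type A values, where 2 arrays against 2 cannot go below p = 0.333 in an exact permutation test. Of the 175 higher genes, 86 stayed below both type A arrays in both spermatid arrays and 77 stood above them. The lower X-linked genes numbered 19 without pachytene replicate 2, 24 without spermatid replicate 1 and 28 without spermatid replicate 2.

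X-linked genes listed for spermatids and X-linked housekeeping genes moved by different amounts. Of 31 listed spermatid genes, 19 were tested, 18 were higher (94.7%) and 0 lower, against 38.04% and 9.78% of all X-linked genes. Their median was 2.69, and 14 of the 18 were above both type A arrays. The other 4 were below both, so the list also holds genes with more signal in type A cells. Taf7l, for example, read 591.2 and 604.9 in spermatids against 1427 and 1601 in type A. Cypt1, a cysteine-rich nuclear protein, went from 39.5 and 25.9 to 801.2 and 1390, by 4.47 ± 0.27, and Tsga8, another nuclear protein of spermatids, from 403.7 and 259.4 to 3675 and 4428. Ube2a, the X-linked copy of a ubiquitin-conjugating enzyme, went from 45.6 and 39.6 to 605.7 and 753.6, by 3.56 ± 0.22, beyond its type A level of 215.2 and 303.1. Its autosomal copy Ube2b was at 710.5 and 806.5 and was higher by 0.58 ± 0.20, not called without either pachytene array or spermatid replicate 2. Among 30 tested of 36 listed X-linked housekeeping genes, 11 were higher (36.7%) and 2 lower (6.67%), near the shares of all X-linked genes. Their median was 0.36, and 9 of the 11 higher genes were still below both type A arrays. Psmd10, of the proteasome, rose from 20.1 and 25 to 231.4 and 248.7, by 2.73 ± 0.18. Atrx, a chromatin remodeller, and Pgk1, the somatic phosphoglycerate kinase, read 38.9 and 37.4 against 42.6 and 38.9 and 144.8 and 123.4 against 106.2 and 113.3, far under their type A levels of 582.1 and 524.6 and 673.6 and 882.8. With all 8 arrays giving the spread, 7 housekeeping genes were higher, and the 2 lower ones, Slc25a5 and Ddx3x, were not called without pachytene replicate 2 or either spermatid array. Ddx3x was also not called under 5 other settings, among them all 8 arrays giving the spread (limma adjusted p = 0.0557).

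Y-linked genes moved with the X. Of 8 tested on the chromosome, 7 were higher (87.5%) and 0 lower, where autosomal genes gave 19.1% and 24.6%. Of 6 tested among 15 listed, 5 were higher (83.3%). Eif2s3y, a translation initiation factor, went from 43.6 and 40.5 to 453.9 and 418.5, by 2.96 ± 0.19, back to its type A level of 435.1 and 353.5. Uba1y, a ubiquitin-activating enzyme, rose by 2.51 ± 0.18 and stayed under its type A level. Autosomal retrogenes that stand in for silenced X-linked genes had a median of 0.19, with 9 tested among 12 listed. Pgk2 was higher (11.1%, all genes 19.7%), Cstf2t was lower by -1.45 ± 0.23 (11.1%, all genes 24%) and 7 did not pass. Their X-linked parents gave 4 higher of 9 tested (44.4%, all X-linked genes 38.04%) and a median of 0.58, with Cstf2 at 2.07 ± 0.20.

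**Figure D4:**
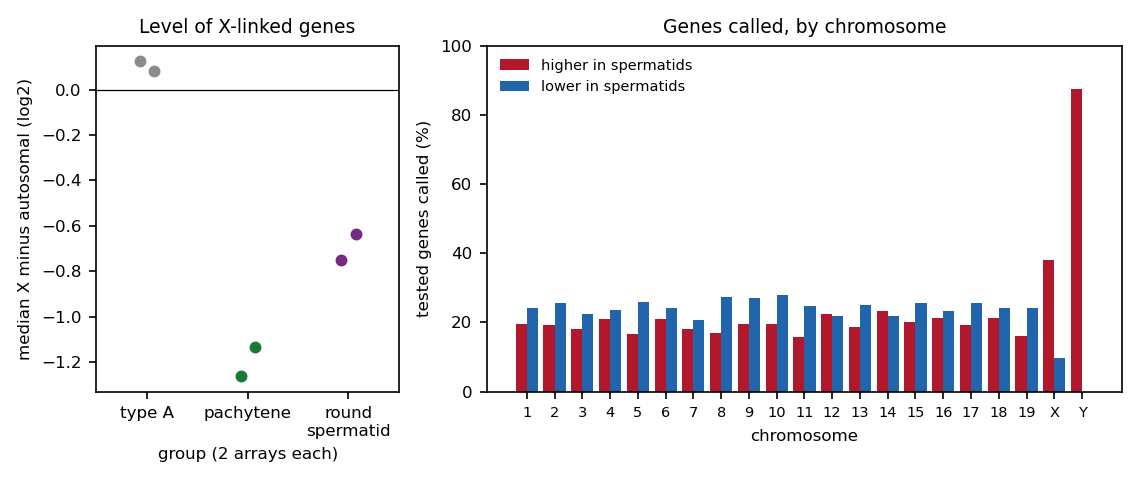
Left, median log2 level of X-linked genes minus that of autosomal genes on each array, 2 arrays per group; spermatids at -0.75 and -0.64 lie between pachytene cells at -1.26 and -1.13 and type A cells. Right, percent of tested genes called higher or lower in spermatids on each chromosome, with 38.04% higher on the X and 7 of 8 genes higher on the Y.

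Markers of somatic cells of the testis differed between the preparations. Of 22 Sertoli cell genes listed, 20 were tested, 14 were lower in spermatids (70%) and 0 higher, where all genes gave 24% and 19.7%. The median of the Sertoli list was -1.13. Their summed signal was 5629 and 8352 on the pachytene arrays, 1816 and 2200 on the spermatid arrays and 19931 and 16298 on the type A arrays. Cldn11, of the Sertoli cell junction, went from 426.7 and 461.4 to 74.8 and 70.5, by -2.38 ± 0.19, and Clu, a secreted chaperone, from 2035 and 2832 to 421.0 and 533.0. Leydig cell genes gave 6 lower (66.7%) and 0 higher of 9 tested among 13 listed, with summed signals of 1665 and 2600 against 765.9 and 845.1. Cyp17a1, of androgen synthesis, went from 264.1 and 502.6 to 48.5 and 36.2, by -2.72 ± 0.31. In both lists pachytene replicate 2 was above replicate 1. The Sertoli count was 9 without pachytene replicate 2 and 9 without spermatid replicate 1, and 1 Leydig gene was higher without pachytene replicate 2.

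Lists of other somatic cells gave more genes higher than lower. Macrophage and blood cell genes gave 6 higher (54.5%) and 1 lower (9.09%) of 11 tested among 19 listed, where all genes gave 19.7% and 24%. Their summed signals were 529.7 and 506.7 in pachytene cells and 841.7 and 954.9 in spermatids. C1qc, of complement, read 8.2 and 11.2 against 66.1 and 68.6, a rise of 1.70 ± 0.22. By contrast Ptprc, the leukocyte antigen CD45, was between 9.8 and 20.2 on the 4 arrays and failed the filter on low signals. C1qa, also listed, failed that filter too, at 3.3 and 4.1 against 5.1 and 11.7. Stromal, peritubular and endothelial genes gave 5 higher (25%) and 1 lower (5%) of 20 tested, and 14 did not pass. The sums of that list, 2565 and 3872 against 2454 and 2532, were lower on both spermatid arrays. Dcn, a matrix proteoglycan, read 36.9 and 96.1 against 296.4 and 290.0, and Sparc, another matrix protein, fell from 1074 and 1800 to 300.5 and 378.8. No marker of these lists was at 0. The macrophage count was 2 without spermatid replicate 2, its single fall, Alas2, was not called without pachytene replicate 1 or 2 or spermatid replicate 1, and the higher stromal count was 3 without pachytene replicate 2 and 2 without either spermatid array. The lower stromal count was 3 without either type A array. The part of other cells in the germ cell results was not tested.

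Ribosomal protein genes served as a level that was not chosen for stage. Of 62 autosomal genes listed, 36 were tested, limma called 0 higher and 0 lower, 3 had an unadjusted p under 0.05, and the median was -0.03. Without pachytene replicate 2, 1 was higher, and without either type A array, 1 was lower.

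The largest single changes included genes of little known function. Lyzl1, a lysozyme-like protein of sperm, went from 46.1 and 8.3 to 1217 and 1532, the greatest rise on this scale at 5.15 ± 0.38. With a pseudocount of 1 that of Nipsnap3a was greater, at 6.55 against 6.03. Cby2, a relative of chibby, went from 62.0 and 19.7 to 1407 and 1591, by 4.84 ± 0.32, and Selenov, a testis selenoprotein, from 82.7 and 15.3 to 1447 and 1410, by 4.70 ± 0.43. For these 3 genes the pachytene replicates differed by more than 3-fold, and pachytene replicate 1 was the higher one each time. Nipsnap3a was near background on both pachytene arrays, at 5.7 and 3.9, and read 503.3 and 574.1 in spermatids. Among the falls, 4921525O09Rik went from 1275 and 849.5 to 48.5 and 86.8, by -3.70 ± 0.31, and 4931408D14Rik from 1264 and 838.6 to 72.9 and 76.0, by -3.53 ± 0.22. Type A signals of both were under 62. Ccp110, which caps centrioles, was among the 13 genes that fell at least 8-fold, from 2318 and 1875 to 276.2 and 212.3. Qpct, a glutaminyl cyclase, fell from 100.2 and 207.1 to 2.4 and 2.2.

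Probe sets of 1 gene can match different ends or isoforms of its transcripts, and many did not move together. Of 23690 probe sets tested, 3624 were higher and 5258 lower. Among 1665 genes with at least 2 probe sets called, 208 (12.5%) had probe sets called in opposite directions, and 179 without the filter on low signals. The genes below were chosen after their values were seen. Gpd2, the mitochondrial glycerol-3-phosphate dehydrogenase, had a probe set that went from 434.6 and 384.9 to 3225 and 2948, by 2.87 ± 0.19, and another that went from 142.7 and 139.1 to 41.6 and 44.8, by -1.41 ± 0.23. Sox6, a transcription factor of spermatids, had probe sets at 3.10 ± 0.21 and -1.47 ± 0.27. Psmf1, a proteasome inhibitor, had 1 probe set at 1.49 ± 0.22 and 2 at -1.48 ± 0.22 and -1.52 ± 0.24. Srpk2, a kinase of splicing factors, had 3 probe sets that rose and 2 that fell. For Cpeb4, of poly(A) control, the probe set used for the gene fell by -1.56 ± 0.24 while another rose by 2.07 ± 0.25. The position of these probe sets along the transcripts was not analysed here.

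**Figure D5:**
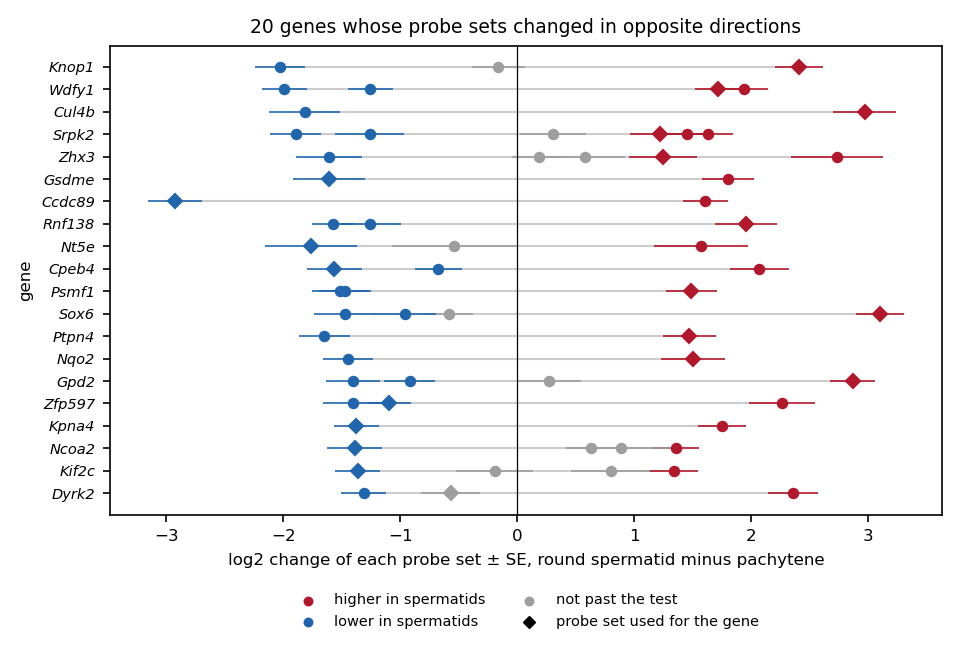
Log2 change ± SE of each tested probe set in 20 genes that had probe sets called in opposite directions, chosen as those with the largest change in the less changed direction; diamonds mark the probe set used for the gene. Knop1 and Cul4b, for example, each hold a probe set that rose and one that fell beyond the standard errors.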

How the data were processed

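The authors deposited 1 intensity per probe set and array, a MAS5 signal per the submitters' processing notes. The sources used here state no software version. Arrays carry a common scale, so a gene is measured against the other genes of its array. Of 45101 probe sets, 34945 listed exactly 1 gene in the platform annotation, 932 several and 9160 none, with 64 controls. Names were updated with a GRCm38.p6 gene table, which matched 34741 and not 204 of those with 1 gene. For each of 18193 genes the probe set with the greatest mean over 6 arrays was kept (type A, pachytene, round spermatid) and tested where its signal was above its array's median on at least 2 of 6, which left 13841.

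Values were log2(signal + 16), which shrinks the fold changes of dim genes. They were fitted in limma 3.58.1 (R 4.3.3; lmFit with a mean per group, eBayes without trend, 3 residual and 5.6 prior degrees of freedom; two-sided, Benjamini-Hochberg over all 13841 genes, called under 0.05). Type B arrays were left out. The code was tested on simulated data. The comparison, the gene lists and the rule for named genes were chosen with earlier results of these data known. That rule took the 10 highest and 10 lowest changes, 5 stage markers, up to 3 rises and 3 falls per list, and 20 genes by role. Other list members are named as examples chosen after their values were seen. Ccnb1, named in the rule, had no probe set listing it alone. Promoter windows came from RefSeq, and genes with several windows were left out of the shares.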

Additional observations from a re-analysis of the deposited data

How the results depend on the processing

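Counts of genes higher in spermatids ran from 2077 to 2932 and of lower genes from 2078 to 3583 when arrays were left out in turn. At least 8-fold, these were 451 to 506 higher and 8 to 18 lower. With a pseudocount of 64 the 8-fold counts were 236 and 1, with a pseudocount of 1 there were 49 lower, and with quantile normalization 6 lower, so the excess of large rises kept its direction under these settings while its size followed the pseudocount. X-linked genes lower ran from 19 to 51. Left-out arrays gave transcription regulators 4 to 7 lower, translation 2 to 5 higher and 3 to 6 lower, axoneme 4 to 12 lower, meiotic axis 6 to 11 lower, piRNA 2 to 5 higher, Sertoli 9 to 14 lower, stromal 2 to 6 higher and macrophage 2 to 6 higher. With all 8 arrays giving the spread, translation had 2 higher, axoneme 5 higher and 5 lower, meiotic axis 6 lower, piRNA 3 higher and X-linked housekeeping 7 higher. Centring on ribosomal protein genes gave axoneme 6 lower and piRNA 3 higher. Averaging all probe sets gave ubiquitin 7 higher and piRNA 3 higher. The stromal list had 2 higher with a pseudocount of 64 and 3 without the filter. The share of genes at least 8-fold higher with TGATGTCA was 21.5% with a pseudocount of 64 and 15.05% to 18.1% under the other choices, all tried after its value was seen. The cause of these shifts was not tested.

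Signs turned for genes that did not pass the test: Ldhc was 0.00 with quantile normalization, Hspa2 was 0.058 with centring on the 75th percentile, 0.027 on ribosomal genes and -0.084 to 0.084 with arrays left out, H1f6 was -0.39 to 0.25 with arrays left out, and with the mean of all probe sets Tbpl1 was -1.004, Pgk1 0.21, Brdt -0.026 and Clgn -0.49. Quantile normalization gave -0.15 for Ddx4, -0.13 for Dkkl1 and -0.118 for Ybx2, and centring gave 0.034 (75th percentile) and 0.0031 (ribosomal) for Spink2. With arrays left out, Catsperz ran from -0.13 to 0.47, Clgn from -0.040 to 0.33, Ddx4 from -0.16 to 0.17, Dkkl1 from -0.15 to 0.17, Spink2 from -0.13 to 0.077 and Ybx2 from -0.028 to 0.065. Of genes that did pass, Capzb turned to 0.49, Kif2c to 0.14 and Rnf17 to -0.12, Catsper2 to -0.094, Creb1 to 0.025 and Psmf1 to -0.33 with the mean of all probe sets, whose members disagree.

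With the replicate number as a block, 2789 genes were higher and 3426 lower. Deviations of same-numbered samples correlated at 0.147 between spermatids and pachytene cells, which with 2 pairs gives no ground to pair them. No count of called genes with at least 5 members moved by over 1.5 times under the block. Precision is limited by there being 2 arrays per group.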
